A study of Mus musculus with 14 samples.

Results

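The 34 genes described here encode enzymes of glycolysis, of pyruvate entry into the mitochondrion and of the citric acid cycle. They were taken by name and matched to the Ensembl gene identifiers of the count table, and all 34 were found among its 42687 genes. Of these, 17 are glycolytic (Hk1, Hk2, Gpi1, Pfkl, Pfkm, Pfkp, Aldoa, Aldoc, Tpi1, Gapdh, Pgk1, Pgam1, Eno1, Eno2, Pkm, Ldha and Ldhb), 5 act on pyruvate (Pdha1, Pdhb, Dlat, Dld and Pcx) and 12 are counted as cycle genes (Cs, Idh3a, Idh3b, Idh3g, Ogdh, Dlst, Sucla2, Suclg1, Suclg2, Fh1, Mdh1 and Mdh2). Mdh1 encodes the cytosolic malate dehydrogenase and is counted with the cycle genes throughout, although it acts outside the mitochondrial cycle. All 34 passed the filter on low counts in every comparison.

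RNA-seq was performed on the retinal pigment epithelium (RPE) of male mice at 3 months of age, with the cells of both eyes of a mouse pooled into 1 library. In KO mice (Best1-Cre+/-; Clic4f/f), Cre driven by the RPE-specific Best1 promoter deletes floxed Clic4, which encodes a chloride intracellular channel protein. The 14 libraries form 3 sets that share no library: 3 KO and 3 WT (C57BL6/J) mice, 2 KO and 2 Ctrl mice (Clic4f/f, without Cre), and 2 KO and 2 CreCtrl mice (Best1-Cre+/-, without floxed alleles). Control genotype and set cannot be told apart. All groups share the age and sex, all 7 KO mice carry the same genotype, and KO libraries were put into sets from the sample titles.

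Glycolysis splits glucose into pyruvate in the cytosol, and lactate dehydrogenase interconverts pyruvate and lactate. The pyruvate dehydrogenase complex feeds acetyl groups into the citric acid cycle, which reduces the carriers that drive oxidative phosphorylation. The RPE is known for oxidising lactate, lipids and amino acids in its mitochondria while passing glucose on to the photoreceptors.

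Expression is given as CPM (counts relative to the size of the library, corrected with the TMM factors of the library's own set). Clic4 was measured at 242.7, 248.5 and 240.4 CPM in the WT libraries and at 32.62, 22.54 and 17.93 CPM in the KO libraries of that set. It was at 69.19 and 59.45 CPM in Ctrl against 9.401 and 32.65 CPM in their KO libraries. In CreCtrl it was at 86.47 and 108.5 CPM, against 13.17 and 30.43 CPM in KO. The KO libraries were thus below their controls in each set, and the decrease passed the test in KO vs. WT and KO vs. CreCtrl but not in KO vs. Ctrl (log2 fold change -1.61, adjusted p = 0.333). Summed over 10 RPE marker genes, expression was 16260 to 24680 CPM in WT and 71000 to 77810 CPM in their KO libraries, 44060 to 44300 against 67590 to 70050 CPM in the Ctrl set, and 49380 to 56470 against 67680 to 75910 CPM in the CreCtrl set. Summed over 10 fibroblast marker genes, it was 8760 to 9279 against 311.1 to 853.8 CPM, 1257 to 2386 against 144 to 346.6 CPM, and 1460 to 3016 against 269.6 to 382.7 CPM in the same order. All 10 RPE and all 10 fibroblast markers had counts in every library. Of the RPE markers, Best1 went the other way in KO vs. WT. It was at 3.53, 6.422 and 4.605 CPM in WT and at 1.206, 1.353 and 1.539 CPM in KO. Its log2 fold change was -1.11 in KO vs. CreCtrl, whereas all 10 RPE markers were above 0 in KO vs. Ctrl. Of the fibroblast markers, Fbln1 went the other way in KO vs. CreCtrl, at 163.3 and 101.9 CPM against 116.5 and 86.57 CPM. The summed endothelial markers were at 313.8 to 605 CPM in WT and 70.37 to 160 CPM in their KO libraries, and the muscle markers at 23.36 CPM or less in every library. Fewer cells of a type and less RNA per cell cannot be told apart in bulk RNA, and the part that these markers have in the enzyme results below was not tested.

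Before the results, 4 glycolytic genes need a caution, because their reads can also match other genes. Of the windows of 50 bases along the longest mRNA, 82.49% for Gapdh, 72.19% for Eno1, 67.96% for Pgk1 and 41.48% for Pgam1 are also found in transcripts of other genes, among them many processed pseudogenes. In the 4 libraries of the Ctrl set, Gapdh had 64 to 167 counts, against 3522 to 23644 counts in the 10 other libraries. The log2 ratio of the median CPM of the Ctrl-set libraries to that of the other libraries was -6.69 for Gapdh, -3.27 for Pgk1, -2.02 for Eno1 and -1.82 for Pgam1. For the 30 other enzymes this ratio lay between -0.52 and 1.30, with a median of 0.04. Those with the next most shared windows were below 0. The ratio was -0.52 for Pkm (34.41% of windows), -0.46 for Pdhb (30.26%) and -0.46 for Ldhb (27.01%). It was -0.21 for Gpi1 (25.26%) and -0.47 for Suclg2 (21.82%), but also -0.42 for Eno2, with 0.25% of windows shared. The 97 genes of the count table that share the most windows with Gapdh had 1226 to 2631 counts together in the Ctrl-set libraries. In the other libraries they had 689 to 2739, so the sums overlapped. These genes include protein-coding ones such as Peli2 (6.13% of windows), whose own reads are in the sums. The sums therefore cannot show where Gapdh reads were counted. The 3 copies with most shared windows, Gm7336, Gm10359 and Gm12671, had at most 1.56% of the Gapdh counts in any library. In the Ctrl-set libraries, the copies of Eno1 had 4 to 18 counts together, those of Pgk1 0 to 16 and those of Pgam1 0. In the other libraries they had 1 to 93, 1 to 20 and 0 to 5, so few reads were counted in these copies. The reason for the low values was not tested, and levels of these 4 genes in the Ctrl set are uncertain.

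**Figure D1:**
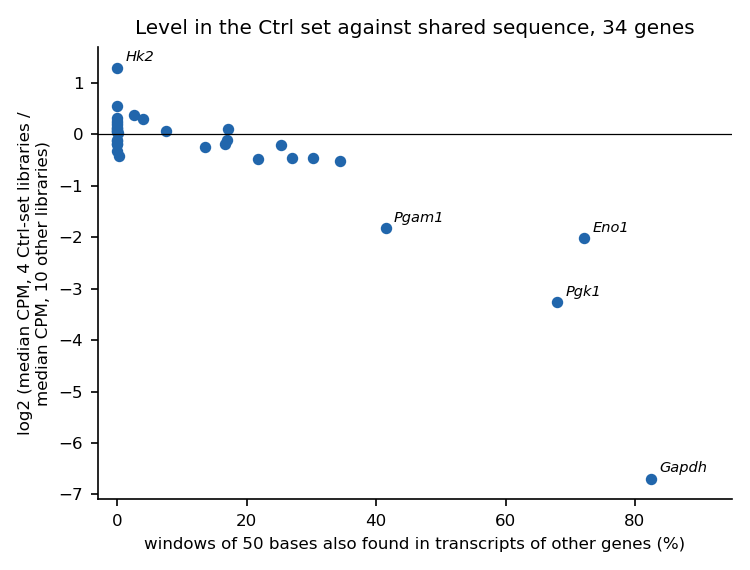
Each point is 1 of the 34 enzymes. The x axis gives the percent of 50-base windows of its mRNA that also occur in transcripts of other genes, and the y axis the log2 ratio of its median CPM in the 4 Ctrl-set libraries to that in the 10 other libraries. Gapdh, Pgk1, Eno1 and Pgam1 lie between -6.69 and -1.82, below all other enzymes.

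The shared stretches show what a short read of 50 bases meets. Bases 301 to 400 of the coding sequence are printed for Gapdh (chr6:125161715-125166467, minus strand, GRCm38), Pgk1 (chrX:106187100-106203699, plus strand) and Aldoa (chr7:126795234-126800751, minus strand), each above a copy at another locus, with differing bases in capitals. The Gapdh copy Gm7336 (chr7:51746647-51747878, plus strand) and the Pgk1 copy Gm5537 (chr3:58102996-58104247, minus strand) are processed pseudogenes, and Aldoart1 (chr4:72850583-72852634, minus strand) is a protein-coding copy of Aldoa.
Gapdh: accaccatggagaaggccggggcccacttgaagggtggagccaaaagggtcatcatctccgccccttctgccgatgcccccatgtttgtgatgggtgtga
Gm7336: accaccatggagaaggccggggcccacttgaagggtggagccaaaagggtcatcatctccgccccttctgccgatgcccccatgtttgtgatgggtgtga
Pgk1: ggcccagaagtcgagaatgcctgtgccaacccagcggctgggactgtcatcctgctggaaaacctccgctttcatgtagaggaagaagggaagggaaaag
Gm5537: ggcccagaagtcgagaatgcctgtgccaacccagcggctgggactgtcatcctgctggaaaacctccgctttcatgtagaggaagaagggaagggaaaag
Aldoa: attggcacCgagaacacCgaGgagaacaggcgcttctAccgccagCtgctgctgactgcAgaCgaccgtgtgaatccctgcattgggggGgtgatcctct
Aldoart1: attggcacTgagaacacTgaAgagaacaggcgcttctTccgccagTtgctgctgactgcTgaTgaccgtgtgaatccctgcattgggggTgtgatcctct
Gapdh and Pgk1 are identical to these copies over all 100 bases, whereas Aldoa and Aldoart1 differ at 8 of 100. Aldoa, with 13.53% of its windows shared, had a log2 ratio of -0.25 between the Ctrl set and the other libraries.

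To find how loss of Clic4 in the RPE relates to these enzymes, KO libraries were compared with the controls of their own set (edgeR quasi-likelihood test, adjusted over all genes tested, called at an adjusted p under 0.05). In KO vs. WT, 28 of the 34 enzymes were higher and 2 were lower in KO, where 16.1% of all genes tested were called higher and 19.0% lower. The log2 fold change had a median of 0.89 over the 34 genes and of -0.08 over all genes. In 29 of the enzymes every KO library was above every WT library, and in 2 every KO library was below, where 23.7% and 28.4% of all genes did so. In this set the RPE marker sums given above were higher and the fibroblast marker sums lower in KO, and both differed most between groups here. Whether the enzyme changes relate to these sums was not tested.

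In KO vs. Ctrl, none of the 34 enzymes was called, and neither was any of all genes (0% higher and 0% lower; 2 enzymes and 1846 of 15287 genes were under 0.05 before adjustment). The median log2 fold change of the enzymes was 0.19, with 26 of 34 above 0, against a median of 0.01 over all genes. Every KO library was above both Ctrl libraries for 9 enzymes and below for 5, where 18.2% and 22.8% of all genes did so. By DESeq2, Hk2 was called lower and no enzyme was called higher, where 17 of all 15287 genes were called higher and 1094 lower.

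In KO vs. CreCtrl, Tpi1, Eno1 and Dlat were higher and Hk2 was lower, where 3.60% of all genes were called higher and 12.2% lower. The median log2 fold change of the enzymes was 0.45, with 31 of 34 above 0, against -0.02 over all genes. Every KO library was above both CreCtrl libraries for 30 enzymes and below for 2, where 34.8% and 36.9% of all genes did so. The count of calls changed with the CreCtrl library left out, where the lone sample is assumed to vary like the other group. More enzymes were called higher without CreCtrl replicate 1, and fewer without CreCtrl replicate 2. The share of all genes called in these fits was not counted. Over leaving out each library of the set, the log2 fold change ran from 0.64 to 1.04 for Tpi1 and 0.58 to 1.11 for Eno1. It ran from 0.53 to 0.83 for Dlat and from -2.97 to -1.28 for Hk2. DESeq2 called 8 glycolytic and 9 pyruvate and cycle genes higher, along with 1655 of all 15963 genes. Scaling by library size alone left 1 enzyme higher and 2 lower, where 219 of all genes were higher and 2757 lower.

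With all 7 KO and 7 control libraries and set as a covariate, 25 enzymes were higher and 1, Eno2, was lower, where 20.1% and 18.6% of all genes were called. For 25 enzymes the log2 fold change was above 0 in all 3 sets, and only Eno2 was below 0 in all 3. The share of all genes with the same sign in all 3 sets was not counted. Some of these signs rest on small values, such as 0.027 for Dlst, 0.056 for Tpi1 and 0.059 for Fh1 in KO vs. Ctrl. These 3 turned sign in some tests that left out 1 library. In 9 enzymes every KO library was above every control library in all 3 sets (Pfkl, Aldoa, Pgam1, Ldhb, Pdhb, Pcx, Idh3a, Suclg1 and Mdh2), where 8.33% of all genes were so. Of these 9, Pgam1 has uncertain levels in the Ctrl set. The 25 enzymes above 0 in all 3 sets include Pgk1, Pgam1 and Eno1, whose Ctrl-set levels are uncertain.

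**Figure D2:**
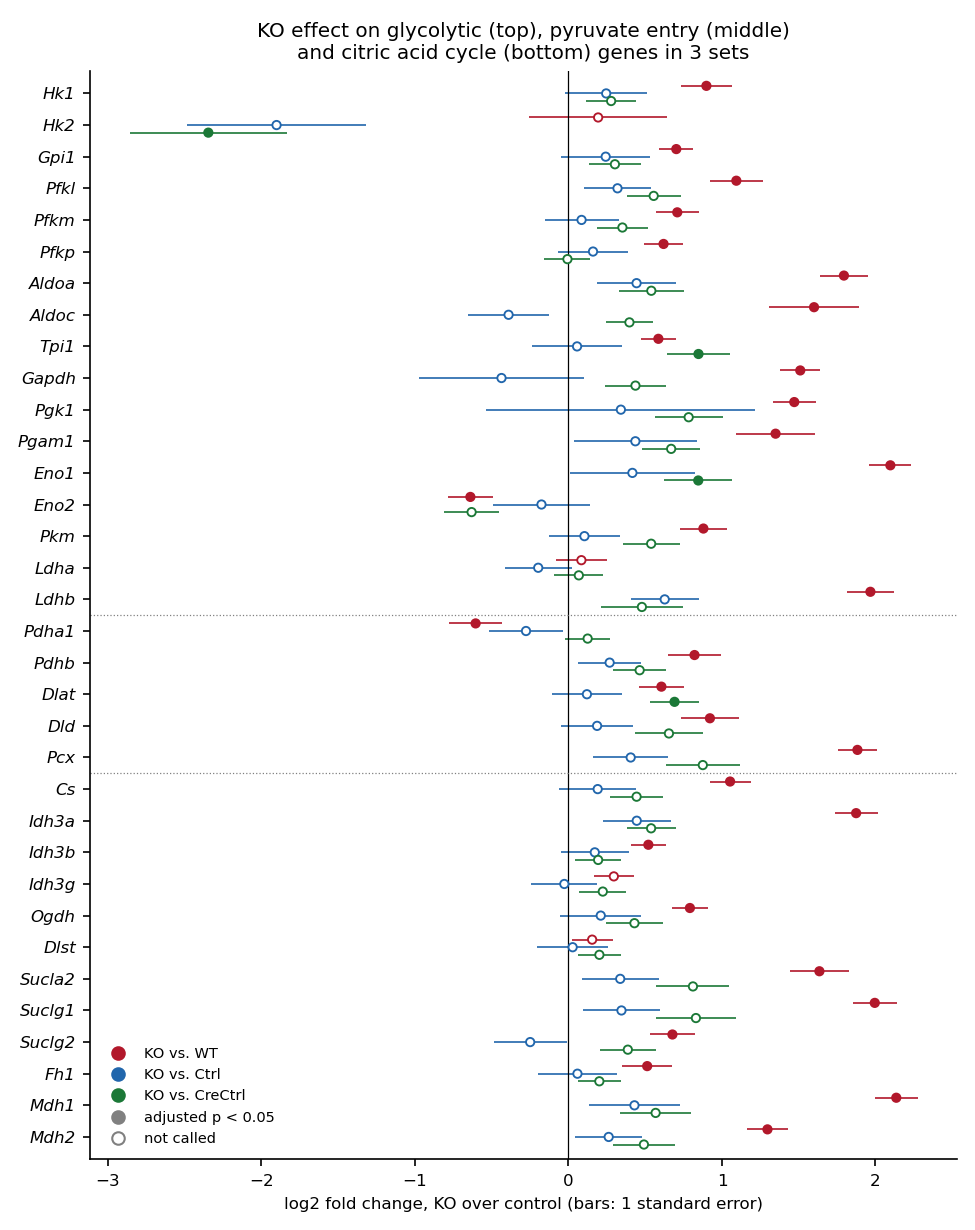
Log2 fold changes of the 34 enzymes (x axis, KO over control, bars are 1 standard error) in KO vs. WT (red), KO vs. Ctrl (blue) and KO vs. CreCtrl (green), with filled points for an adjusted p under 0.05. KO vs. WT values reach 2.14 for Mdh1, whereas no blue point is filled, and Hk2 lies at -1.90 and -2.35 in KO vs. Ctrl and KO vs. CreCtrl.

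The hexokinases trap glucose as glucose 6-phosphate. Hk1, the isoform bound to mitochondria in most tissues, was at 133.1, 163.1 and 207 CPM in WT and at 311.5, 303 and 323.7 CPM in their KO libraries, an increase of 0.90 ± 0.17 on the log2 scale (SE, n = 3 against 3, adjusted p = 0.00333). Hk2 (ENSMUSG00000000628, chr6:82725025-82774454, minus strand), the insulin- and hypoxia-responsive isoform, did not follow. It was at 7.061, 20.01 and 24.84 CPM in WT and at 27.2, 14.48 and 17.73 CPM in KO. In CreCtrl it was at 13.08 and 43.09 CPM against 5.691 and 5.302 CPM in KO, and in Ctrl at 48.27 and 104.3 CPM against 11.28 and 29.55 CPM. The groups overlapped in the WT set and were apart, with KO lower, in the other sets. The log2 fold change of Hk2 was 0.19 ± 0.45 in KO vs. WT (adjusted p = 0.788), -1.90 ± 0.58 against Ctrl (adjusted p = 0.241) and -2.35 ± 0.51 against CreCtrl (adjusted p = 0.0289). The last value was -1.28 without CreCtrl replicate 2, and with all 14 libraries fitted as 6 groups the call was lost (-2.31, adjusted p = 0.0658). The KO effect on Hk2 did not pass the test of a difference between the WT and CreCtrl sets (2.65 ± 0.84, adjusted p = 0.143). In the CreCtrl set the summed rod photoreceptor markers were also lower in KO, at 236.4 to 357 CPM against 993.5 to 4732 CPM, whereas in the Ctrl set they were at 1689 to 1789 CPM in KO and 342.3 to 1853 CPM in Ctrl.

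Phosphofructokinase commits sugar to glycolysis, and its liver (Pfkl), muscle (Pfkm) and platelet (Pfkp) isoforms rose together in KO vs. WT, by 1.09 ± 0.17, 0.71 ± 0.14 and 0.62 ± 0.13 on the log2 scale. None of them was called in the other sets. Their log2 fold changes were 0.32, 0.085 and 0.16 in KO vs. Ctrl and 0.56, 0.35 and -0.0066 in KO vs. CreCtrl. Pfkl was at 132, 144.2 and 197 CPM in WT and at 300.9, 346.2 and 362.9 CPM in KO. Per length, Pfkl had the highest share of these 3 in every library. Gpi1, which isomerises glucose 6-phosphate, rose by 0.70 ± 0.11 in the same comparison.

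The aldolases cleave fructose 1,6-bisphosphate. Aldoa, the muscle-type and broadly expressed isoform, was at 724.2, 854.6 and 1035 CPM in WT and at 2990, 3191 and 2885 CPM in KO (3.47-fold, log2 1.79 ± 0.16, adjusted p = 8.78e-05). It was at 1573 and 1535 CPM in Ctrl against 2106 and 2121 CPM in KO, and at 1947 and 1578 CPM in CreCtrl against 2486 and 2639 CPM in KO. The KO libraries were above their controls in all 3 sets, and the difference outside the WT set did not pass the test (0.44 ± 0.26 and 0.54 ± 0.21). Aldoc, the brain-type isoform, rose by 1.60 ± 0.29 in KO vs. WT and had a log2 fold change of -0.39 ± 0.27 in KO vs. Ctrl. Aldoa made up 94.2% to 98.2% of the reads per kilobase of Aldoa and Aldoc together in every library.

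The enzymes of the later steps of glycolysis include those with most shared sequence. In KO vs. WT, Tpi1 rose by 0.59 ± 0.12, Gapdh by 1.51 ± 0.13, Pgk1 by 1.47 ± 0.14, Pgam1 by 1.35 ± 0.26 and Pkm, which makes pyruvate, by 0.88 ± 0.15. Tpi1, the triose isomerase, with 7.51% of windows shared, was also higher in KO vs. CreCtrl, at 190.1 and 242.3 CPM against 135.6 and 104.6 CPM (0.85 ± 0.20, adjusted p = 0.0364). That call was lost without CreCtrl replicate 2 or without replicate 2 of its KO libraries. Gapdh was at 310.8, 331.4 and 386.6 CPM in WT and at 970.6, 1012 and 947.9 CPM in KO, whereas in the Ctrl set all 4 libraries were between 4.011 and 10.27 CPM.

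Enolase showed opposite changes of its isoforms. Eno1 (ENSMUSG00000063524, chr4:150236721-150248879, plus strand), the general isoform, was at 163.7, 166.9 and 202.5 CPM in WT and at 703.3, 787.1 and 790.6 CPM in KO (4.28-fold, log2 2.1 ± 0.14, adjusted p = 3.33e-05). In KO vs. CreCtrl it was at 714.4 and 781.5 CPM against 487.6 and 344.8 CPM (0.85 ± 0.22, adjusted p = 0.0448), a call that was lost in 3 of the 4 tests that left out 1 library, all except that without CreCtrl replicate 1, and with all 14 libraries fitted as 6 groups (0.88, adjusted p = 0.097). Eno2 (chr6:124760053-124769673, minus strand), the neuronal isoform, was at 85.52, 93.54 and 104.8 CPM in WT and at 62.09, 52.18 and 68.03 CPM in KO, so that every KO library was lower (-0.64 ± 0.14, adjusted p = 0.00906). With all 14 libraries fitted as 6 groups this call was lost (-0.50, adjusted p = 0.0594). Its log2 fold change was -0.18 ± 0.32 against Ctrl and -0.63 ± 0.18 against CreCtrl (adjusted p = 0.0549), and -0.45 ± 0.13 with set as a covariate (adjusted p = 0.0161). Divided by mRNA length, Eno2 made up 27.5%, 28.9% and 27.3% of the reads of Eno1 and Eno2 together in WT and 6.02%, 4.59% and 5.87% in their KO libraries. It made up 8.65% and 14.1% in CreCtrl against 4.92% and 3.62% in KO, and 22.8% and 19.8% in Ctrl against 12.7% and 20.6% in KO. The groups overlapped in the Ctrl set only, where the Eno1 counts are uncertain. Eno3, the muscle isoform, is not in these shares, although it was at 44.49 to 76.17 CPM in WT and 27 to 40.47 CPM in KO.

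Lactate dehydrogenase also shifted in composition. Ldhb (ENSMUSG00000030246, chr6:142490249-142507957, minus strand), the heart-type subunit that favours lactate oxidation, was at 161.6, 181.9 and 225.9 CPM in WT and at 766.3, 725.3 and 734.9 CPM in KO (3.91-fold, log2 1.97 ± 0.15, adjusted p = 5.33e-05). It was at 320 and 324.2 CPM in Ctrl against 505.1 and 489.8 CPM in KO (0.63 ± 0.22, adjusted p = 0.324), and at 557.4 and 328.9 CPM in CreCtrl against 583.1 and 651.9 CPM in KO (0.48 ± 0.27, adjusted p = 0.226). Every KO library was above its controls in each set. Ldha, the muscle-type subunit that favours lactate formation, was at 92.94, 137.1 and 125.9 CPM in WT and at 138.6, 110.8 and 128 CPM in KO, and the groups overlapped. Its log2 fold change was 0.08 ± 0.17, -0.20 ± 0.22 and 0.07 ± 0.16 in KO vs. WT, KO vs. Ctrl and KO vs. CreCtrl. Per length, Ldhb made up 70.8%, 64.9% and 71.4% of the reads of Ldha and Ldhb together in WT and 88.5%, 90.1% and 88.9% in their KO libraries. It made up 81.9% and 80.7% in Ctrl against 87.9% and 89.1% in KO, and 88.5% and 80.5% in CreCtrl against 89% and 88.2% in KO, where the groups overlapped. These shares are a description and were not tested.

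**Figure D3:**
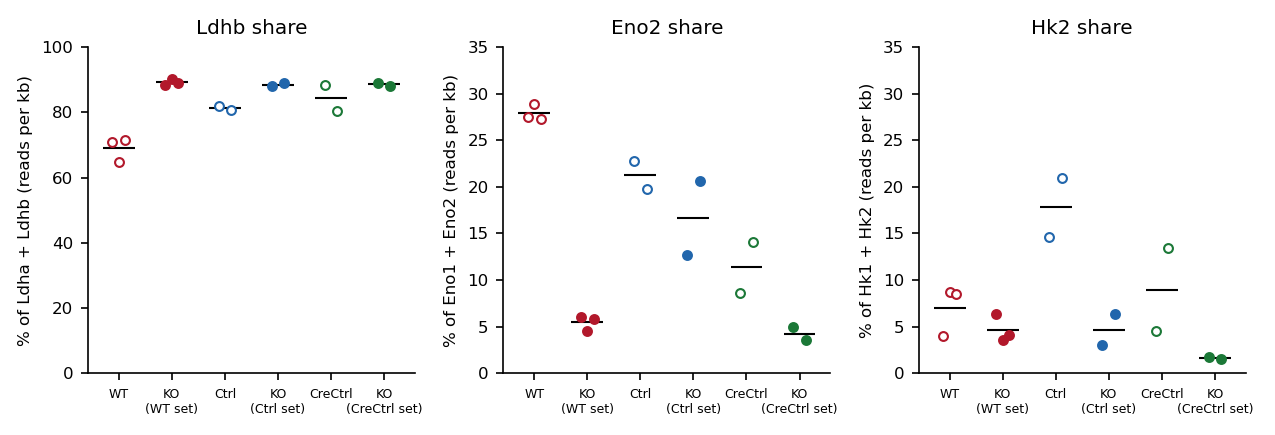
Share of Ldhb, Eno2 and Hk2 (y axes, percent) in the reads per kilobase of the pairs Ldha and Ldhb, Eno1 and Eno2, and Hk1 and Hk2 in each library, without Eno3, Hkdc1 and Hk3 (open points are controls, filled points are KO, lines are group means). Ldhb runs from 64.9% to 71.4% in WT and from 88.5% to 90.1% in their KO libraries, whereas Eno2 runs from 27.3% to 28.9% and from 4.59% to 6.02%.

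At the entry of pyruvate into the mitochondrion, Pcx, which carboxylates pyruvate to oxaloacetate, showed the largest increase of the 5 genes. It was at 60.28, 67.2 and 70.89 CPM in WT and at 228.9, 234.4 and 268.2 CPM in KO (3.69-fold, log2 1.88 ± 0.13, adjusted p = 3.52e-05). Its log2 fold change was 0.41 ± 0.24 against Ctrl and 0.88 ± 0.24 against CreCtrl (adjusted p = 0.0504), and the KO libraries were above their controls in each set. Of the pyruvate dehydrogenase complex, Pdhb rose by 0.82 ± 0.17, Dlat, the acetyltransferase, by 0.61 ± 0.15 and Dld, the dihydrolipoamide dehydrogenase, by 0.92 ± 0.19 in KO vs. WT. Dlat was also higher in KO vs. CreCtrl, at 70.52 and 74.89 CPM against 49.2 and 40.79 CPM (0.69 ± 0.16, adjusted p = 0.0319), which was lost without CreCtrl replicate 2 or replicate 2 of its KO libraries.

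Pdha1, the catalytic subunit of the same complex, went the other way in KO vs. WT. It was at 166.6, 179.3 and 178.3 CPM in WT and at 137, 121.9 and 85.82 CPM in KO, with no overlap (-0.60 ± 0.17, adjusted p = 0.0251). This call was lost in 4 of the 6 tests that left out 1 library (WT replicate 2 or 3, KO replicate 2 or 3), and the value without KO replicate 3 was -0.34. Pdha1 was at 113.6 and 126 CPM in Ctrl against 112.3 and 85.54 CPM in KO, and at 113.4 and 110.3 CPM in CreCtrl against 116.8 and 127.1 CPM in KO. Its exons overlap Map3k15 on the opposite strand over 603 bases, and the strand setting of the counting is not given in the sources used here. The exons of Pfkp and Gpi1, both higher in KO vs. WT, overlap Pitrm1 (748 bases) and Gm26762 (741 bases) in the same way.

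Of the 12 cycle genes, 10 rose and none fell in KO vs. WT, where 16.1% of all genes tested were called higher and 19.0% lower. Idh3g and Dlst did not pass the test (0.30 ± 0.13 and 0.15 ± 0.13). Mdh1 (ENSMUSG00000020321, chr11:21556787-21572367, minus strand), the cytosolic malate dehydrogenase of the malate-aspartate shuttle, had the largest log2 fold change of all 34 enzymes in KO vs. WT, with 182.4, 174.7 and 225.4 CPM in WT and 858.1, 832 and 869.9 CPM in KO (4.39-fold, log2 2.14 ± 0.14, adjusted p = 3.33e-05). It was at 493.4 and 404.7 CPM in Ctrl against 726.3 and 483.5 CPM in KO, where the groups overlapped, and at 558.7 and 376.4 CPM in CreCtrl against 679.3 and 707 CPM in KO, where they did not. Mdh2, the mitochondrial enzyme, rose by 1.30 ± 0.13 in KO vs. WT, and its KO libraries were above their controls in all 3 sets.

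Among the subunits of the NAD-dependent isocitrate dehydrogenase, the changes were unequal. Idh3a, the catalytic subunit, was at 42.01, 44.68 and 55.86 CPM in WT and at 174.9, 166.5 and 181.4 CPM in KO (3.67-fold, log2 1.87 ± 0.14, adjusted p = 4.84e-05). It was at 129.4 and 141.9 CPM in Ctrl against 170.7 and 198.6 CPM in KO, and at 137.4 and 118.1 CPM in CreCtrl against 182.5 and 188.6 CPM in KO, with no overlap in any set. Idh3b rose by 0.52 ± 0.12 in KO vs. WT. Idh3g, the second regulatory subunit, was at 82.87, 67.3 and 73.15 CPM in WT and at 83.8, 97.59 and 92.71 CPM in KO.

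Succinyl-CoA ligase joins the shared subunit Suclg1 to an ADP-specific (Sucla2) or a GDP-specific (Suclg2) partner. Suclg1 was at 45.1, 46.26 and 56.24 CPM in WT and at 176.8, 218.4 and 193.7 CPM in KO (3.99-fold, log2 2.00 ± 0.14, adjusted p = 4.18e-05). Sucla2 rose by 1.63 ± 0.19 and Suclg2 by 0.68 ± 0.14 in KO vs. WT. Cs, which condenses acetyl-CoA with oxaloacetate, rose by 1.05 ± 0.13, Ogdh by 0.79 ± 0.12 and Fh1, the fumarase, by 0.51 ± 0.16 in the same comparison. None of these genes was called in KO vs. Ctrl or KO vs. CreCtrl. The Fh1 call (adjusted p = 0.0373) was lost without KO replicate 2 and without either WT replicate 2 or 3.

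**Figure D4:**
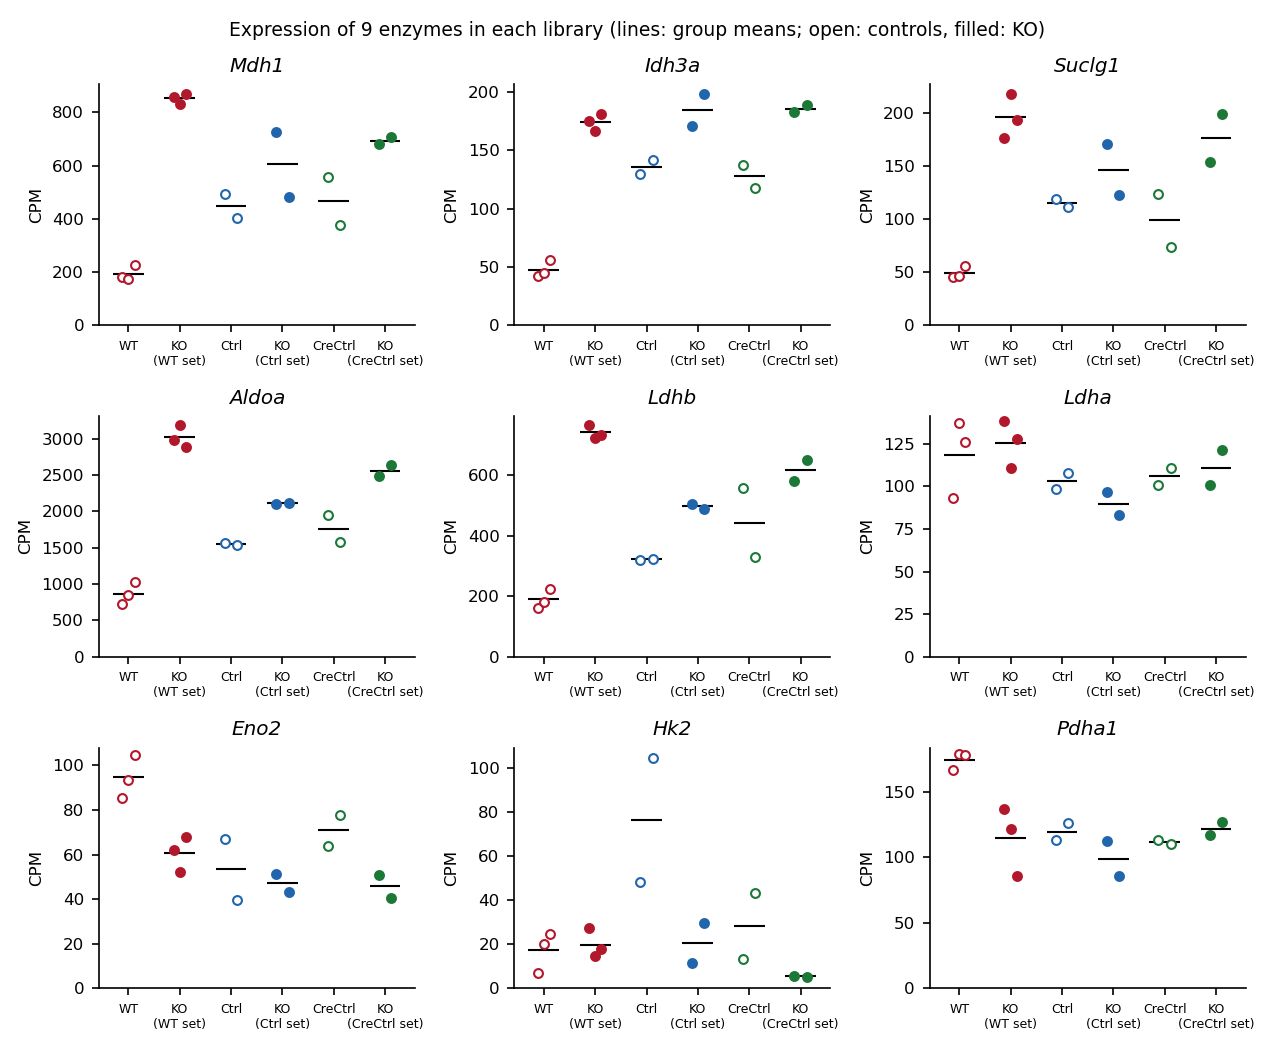
CPM (y axes, from 0) of 9 enzymes in each library, with open points for controls, filled points for KO and lines for group means. Mdh1, Idh3a, Suclg1, Aldoa and Ldhb are lowest in the 3 WT libraries, whereas Ldha lies between 83.18 and 138.6 CPM in all 14 libraries.

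The KO effect was compared between sets, which share no library (edgeR, 14 libraries as 6 groups). It was different with WT and with Ctrl as the control for 15 of the 34 enzymes, all more positive in the WT set, where 5.15% of all genes were called in either direction. Of these, Gapdh and Eno1 have uncertain counts in the Ctrl set. Pkm, Ldhb and Suclg2, also among the 15, have 34.41%, 27.01% and 21.82% of their windows shared with other genes. The calls of Gapdh, Idh3a and Mdh1 held when each library was left out in turn, and without KO replicate 2 of the Ctrl set only 4 enzymes were called. Against the effect in the CreCtrl set, that in the WT set differed for Aldoa, Ldhb, Idh3a and Mdh1, where 1.49% of all genes were called. None of these 4 calls held in every test that left out 1 library, and without CreCtrl replicate 1 the count was 0. Between the Ctrl and CreCtrl sets no enzyme was called, and neither was any of all genes (0%; 1545 of 17662 genes under 0.05 before adjustment). The control libraries differed in level as well: Mdh1 had 174.7 to 225.4 CPM in WT, against 376.4 to 558.7 CPM in Ctrl and CreCtrl. The RPE marker sums of the controls differed in the same order.

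The glycolytic genes were then set beside the pyruvate and cycle genes. In KO vs. WT the median log2 fold change was 0.90 over the 17 glycolytic genes (14 higher, 1 lower) and 0.82 over the 17 pyruvate and cycle genes (14 higher, 1 lower). Of all genes tested in this comparison, 16.1% were called higher and 19.0% lower. Without Gapdh, Eno1, Pgk1 and Pgam1, an alternative added after seeing the data, 10 of 13 glycolytic genes were higher and the median was 0.71. With set as a covariate both classes had a median of 0.62, with 12 glycolytic genes higher and 1 lower and 13 pyruvate and cycle genes higher and 0 lower. With this covariate 20.1% of all genes were called higher and 18.6% lower. In each library the mean log2 CPM of the cycle genes was subtracted from that of the glycolytic genes. This difference was 0.624 in WT and 0.6635 in KO on average, -0.1511 in Ctrl and -0.3292 in KO, and 0.6283 in CreCtrl and 0.4015 in KO. KO minus control was therefore 0.0395, -0.1781 and -0.2268, and without the 4 genes of shared sequence -0.1441, -0.1995 and -0.3602. With medians over genes in place of means, the sign turned in the WT and CreCtrl sets, so that no direction can be read from this balance.

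**Figure D5:**
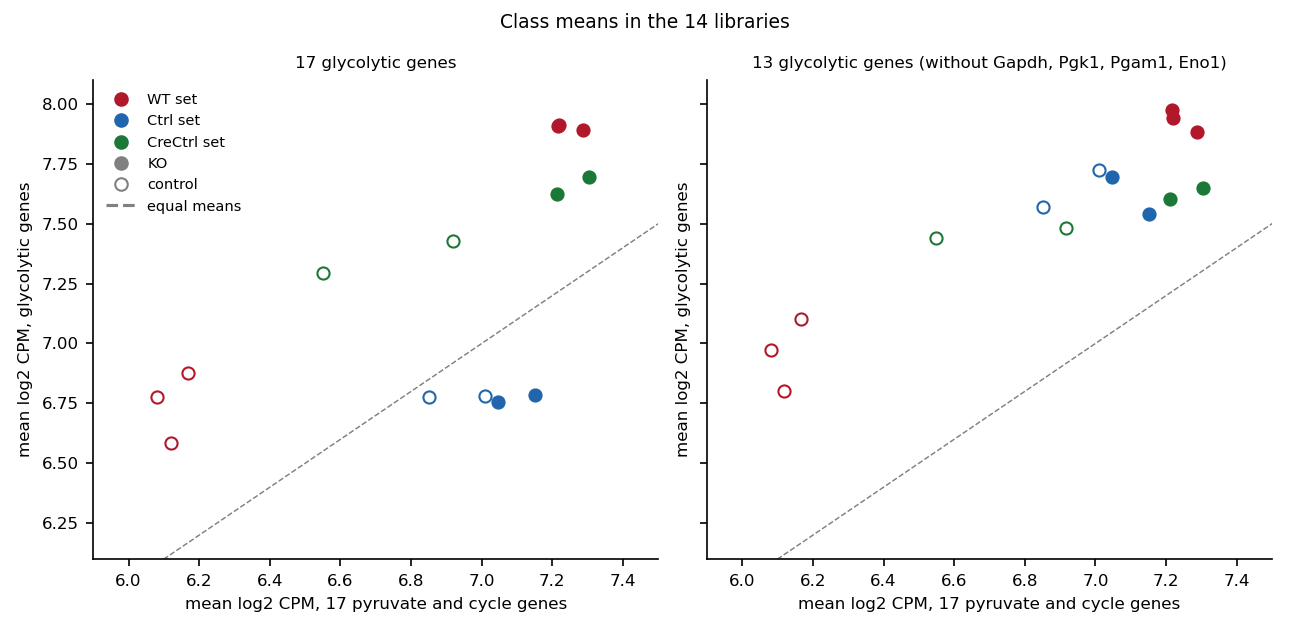
Mean log2 CPM of the glycolytic genes (y axis) against that of the 17 pyruvate and cycle genes (x axis) in the 14 libraries, with all 17 glycolytic genes (left) and with 13 (right); open points are controls, filled points are KO, and the dashed line marks equal means. The 4 Ctrl-set libraries lie below the line on the left and above it on the right, and the WT libraries have the lowest cycle means, between 6.08 and 6.17.

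Further genes of the pathway were counted from lists. Of 11 pyruvate carriers and other subunits of the mitochondrial complexes, 10 were higher and none lower in KO vs. WT (16.1% and 19.0% of all genes), 0 were called in KO vs. Ctrl, and 1 (Sdhd, 0.78 ± 0.21) was higher in KO vs. CreCtrl (3.60% of all genes). Compared with WT, Pdhx rose by 0.86 ± 0.25, and the mitochondrial pyruvate carrier genes Mpc1 and Mpc2 by 1.11 ± 0.16 and 0.89 ± 0.15. Mpc1 was low in all 4 Ctrl-set libraries, at 7.014 to 9.469 CPM, against 25.51 to 68.49 CPM elsewhere. The succinate dehydrogenase genes Sdha, Sdhb, Sdhc and Sdhd rose by 0.70 ± 0.11, 0.84 ± 0.18, 1.16 ± 0.18 and 0.96 ± 0.15. Of 16 cytosolic, NADP-linked and shuttle genes, beside the same shares of all genes, 10 were higher and none lower in KO vs. WT, 0 were called in KO vs. Ctrl, and 2 (Slc25a11 and Slc25a12, which carry oxoglutarate and aspartate) were higher in KO vs. CreCtrl. Idh1 and Idh2, the NADP-dependent isocitrate dehydrogenases, did not pass the test against WT (0.34 ± 0.18 and -0.19 ± 0.16). Of the gluconeogenic list only Pck2 and G6pc3 were tested in KO vs. WT, and neither was called (-0.90 ± 0.37 and 0.45 ± 0.16), and Pck1 did not pass the filter.

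Of the 12 regulators in KO vs. WT, where 16.1% of all genes were higher and 19.0% lower, 2 were higher (Tigar, 0.88 ± 0.25, and Pdk2, 0.65 ± 0.11) and 3 lower (Pfkfb3, Pfkfb4 and Pdp1). Pfkfb3, which makes the fructose 2,6-bisphosphate that activates phosphofructokinase, was at 48.37, 82.84 and 70.96 CPM in WT and at 14.6, 4.399 and 3.746 CPM in KO (-3.15 ± 0.51, adjusted p = 0.00173). It was at 33.35 and 80.16 CPM in Ctrl against 4.325 and 17.13 CPM in KO (-2.40 ± 0.75, adjusted p = 0.251), and at 21.29 and 23.05 CPM in CreCtrl against 1.393 and 3.743 CPM in KO (-3.10 ± 0.43, adjusted p = 0.00804). Every KO library was thus below its controls in all 3 sets. Pfkfb4, a second isoform, fell by 1.03 on the log2 scale in KO vs. WT, and Pdp1, which reactivates pyruvate dehydrogenase, fell by 2.03. Pfkfb1 and Pfkfb2 were not called (-1.70 ± 1.21 and -0.01 ± 0.38). Of the pyruvate dehydrogenase kinases, which inactivate the complex, Pdk1, Pdk3 and Pdk4 were not called in KO vs. WT (0.24 ± 0.18, 0.83 ± 0.34 and -0.33 ± 0.45). In KO vs. CreCtrl, Pdk3 and Pdp2 were higher (0.71 ± 0.19 and 0.79 ± 0.21), where 3.60% of all genes were called higher and 12.2% lower. Of 14 other glycolytic isoforms, 7 were tested in KO vs. WT: Hkdc1 was higher (1.14 ± 0.36), and Hk3, Bpgm and Eno3 were lower (-3.69 ± 0.99, -1.13 ± 0.17 and -0.80 ± 0.24). In KO vs. CreCtrl, Hk3 and Eno3 were lower (12.2% of all genes). Hk3 is known as a hexokinase of myeloid cells, and the summed myeloid markers were at 1544 to 2700 CPM in WT and 810.5 to 938.5 CPM in their KO libraries. Of the 10 markers 9 were lower in KO vs. WT, with a list median of -3.91 on the log2 scale. The other marker, Csf1r, was higher, at 521.4, 528.8 and 560.1 CPM in WT and 760, 809.4 and 740.8 CPM in KO.

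The upstream sequences of the genes were searched for the hypoxia response core ACGTG and the estrogen-related receptor half-site AAGGTCA, on both strands, in the 250 bases before each listed start (RefSeq, GRCm38.p6). All 17 glycolytic genes and 16 of the 17 pyruvate and cycle genes were matched. The first motif was present for 7 glycolytic genes (Hk2, Pfkm, Aldoa, Pgk1, Pgam1, Pkm and Ldha) and 5 of the others (Pdhb, Pcx, Idh3g, Ogdh and Mdh1), and for 18.5% of all genes or 16.6% of all 32851 upstream regions. The second was present for Eno1 alone, and in 4.08% of all upstream regions. A start of Ldha, which did not pass the test in any comparison, and that of Mdh1, which had the largest KO vs. WT fold change, are shown with the first motif in capitals. They lie at chr7:46845554-46845803 (plus strand, the first listed of 2 starts) and chr11:21571935-21572184 (minus strand).
Ldha: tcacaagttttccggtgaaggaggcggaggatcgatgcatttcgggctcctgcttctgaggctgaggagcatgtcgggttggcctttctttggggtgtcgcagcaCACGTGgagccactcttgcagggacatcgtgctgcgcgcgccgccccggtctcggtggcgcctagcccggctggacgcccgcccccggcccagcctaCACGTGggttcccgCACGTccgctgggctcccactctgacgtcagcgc
Mdh1: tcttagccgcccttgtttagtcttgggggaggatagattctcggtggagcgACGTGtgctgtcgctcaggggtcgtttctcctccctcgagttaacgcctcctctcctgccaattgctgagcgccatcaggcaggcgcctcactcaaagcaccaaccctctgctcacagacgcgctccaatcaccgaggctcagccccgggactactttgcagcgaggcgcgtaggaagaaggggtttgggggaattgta
The motif was found at 3 places upstream of Ldha and at 1 place upstream of Mdh1. A match is a description of these letters only.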

How the data were processed

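Per the labels and the study's methods, the authors sequenced stranded poly(A) libraries of RPE RNA on an Illumina NovaSeq with paired-end 50 cycles and aligned the reads to GRCm38 with STAR 2.5.2. The submitters' processing notes also list bcl2fastq 2.19, HTSeq 0.11.2 and Cufflinks 2.1.1. The annotation release and strand setting are not given in the sources used here. The deposited table holds raw counts per Ensembl gene, summing to 9828293 to 32384166 per library. Labels do not say that same-numbered mice are related, and p-values measure the spread between mice.

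KO was compared with the controls of its set by edgeR 4.0.16 (quasi-likelihood test, TMM, filterByExpr, Benjamini-Hochberg over all genes tested, in R 4.3.3). SE is the log2 fold change divided by the square root of F. DESeq2 1.42.0 was an alternative, with other normalizations, filters, a replicate block and leaving out each library. Log2 CPM used a prior count of 2, and the Ctrl-set ratios and class means the scale over all 14 libraries. Positions came from GENCODE M21, which held 42329 of 42687 genes. Tests were tried on simulated data first. The genes, lists and rules were chosen with earlier results of these data known. All 34 genes are named, with Clic4, chosen genes of the other lists and the genes of any count of 5 or fewer. The result of 1 gene of these lists is not reported here.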

Additional observations from a re-analysis of the deposited data

Results flagged for a closer look

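The KO effect on 15 enzymes was larger with WT than with Ctrl as the control by the test of the difference itself. The log2 difference, KO effect in the WT set minus that in the Ctrl set, was 0.92 for Pfkl, 1.49 for Aldoa, 2.13 for Aldoc, 2.07 for Gapdh, 1.82 for Eno1, 0.92 for Pkm and 1.48 for Ldhb. Among pyruvate and cycle genes it was 1.62 for Pcx, 1.01 for Cs, 1.57 for Idh3a, 1.44 for Sucla2, 1.79 for Suclg1, 1.07 for Suclg2, 1.85 for Mdh1 and 1.18 for Mdh2. The fold changes of Aldoc and Suclg2 were below 0 in KO vs. Ctrl (-0.39 and -0.25) and above 0 in KO vs. WT (1.60 and 0.68). Against the CreCtrl set the difference passed the test for Aldoa (1.37), Ldhb (1.60), Idh3a (1.44) and Mdh1 (1.68).

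Among the 7 KO libraries, 1 library stood apart for 3 enzymes by the ratio of its gap from the next library to the whole range. This ratio was 0.639 for Gpi1 (KO replicate 1 of the Ctrl set), 0.569 for Pfkm and 0.616 for Mdh1 (both KO replicate 2 of the Ctrl set), against a critical value of 0.568. Chance alone gives about 1 such case in 20 groups of like libraries, and 34 enzymes were examined. The 7 KO libraries come from 3 sets, and all 3 cases lie in the Ctrl set. A difference between sets and an outlying library cannot be told apart here. In KO replicate 2 of the Ctrl set the summed myeloid markers were at 2396 CPM. They were at 821.2 CPM in KO replicate 1 of that set and at 873.7 to 1291 CPM in Ctrl. Csf1r alone was at 736.5 CPM in KO replicate 1, 669.9 CPM in KO replicate 2 and 562.7 and 431.2 CPM in Ctrl. Every other myeloid marker was higher in KO replicate 2 than in KO replicate 1. Lyz2, for example, was at 1320 and 52.77 CPM in that order, with 479.8 and 308.3 CPM in Ctrl. A relation to the enzyme values was not tested.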

How the results depend on the processing

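Calls in KO vs. WT rested least on single libraries: 28 of 30 enzymes stayed called when each of the 6 libraries was left out, against 1 of 4 in KO vs. CreCtrl, where leaving out a library leaves 1 sample in an arm. With set as a covariate 23 of 26 did, and Fh1, Pfkp and Pgk1 did not. Over leaving out each library, the counts of enzymes called in KO vs. CreCtrl went up or down with the library. The share of all genes called with a library left out was not counted in any comparison. With set as a covariate glycolytic genes lower ran from 1 to 2, and pyruvate and cycle genes lower in KO vs. WT from 0 to 1. The enzymes whose KO effect differed from the WT set ran from 4 to 17 (Ctrl set) and 0 to 7 (CreCtrl set). Single genes that turned sign had left-out ranges in KO vs. Ctrl of -0.0075 to 0.43 (Cs), -0.51 to 0.26 (Eno2), -1.01 to 0.014 (Gapdh), -0.22 to 0.40 (Tpi1), -0.025 to 0.25 (Dlat), -0.14 to 0.17 (Dlst), -0.23 to 0.86 (Eno1), -0.19 to 0.27 (Fh1), -0.028 to 0.47 (Gpi1), -0.14 to 0.072 (Idh3g), -0.15 to 0.28 (Pfkm), -0.023 to 0.32 (Pfkp) and -1.49 to 1.13 (Pgk1). In KO vs. CreCtrl they were -0.066 to 0.22 (Ldha) and -0.082 to 0.095 (Pfkp), in KO vs. WT -0.18 to 0.55 (Hk2) and -0.061 to 0.25 (Ldha), and with set as a covariate -0.015 to 0.11 (Ldha). Pfkp in KO vs. CreCtrl turned to 0.0036 with DESeq2, 0.0035 with RLE normalization, 0.027 with all 14 libraries as 6 groups and 0.027 with every gene of at least 1 count. Ldha with set as a covariate turned to -0.0079 with DESeq2, -0.0079 with RLE normalization and -0.049 with at least 10 counts in every library, which also turned Dlst in KO vs. Ctrl to -0.0077. With library size alone the median of all genes became -0.32, -0.11, -0.24 and -0.27 (KO vs. WT, Ctrl, CreCtrl and set as a covariate), and this setting turned Dlst to -0.091, -0.086, -0.020 and -0.069 in that order. It turned Ldha to -0.16, -0.16 and -0.20 in KO vs. WT, KO vs. CreCtrl and with the covariate, Hk2 to -0.042 in KO vs. WT, Fh1 to -0.063, Pfkm to -0.034, Pkm to -0.0085 and Tpi1 to -0.044 in KO vs. Ctrl, Fh1 to -0.021, Idh3b to -0.025 and Pdha1 to -0.10 in KO vs. CreCtrl, and Idh3g to -0.016 with the covariate. In KO vs. CreCtrl, glycolytic genes higher, glycolytic genes lower, and pyruvate and cycle genes higher numbered 8, 2 and 9 with DESeq2, 5, 2 and 6 with every gene of at least 1 count, 1, 2 and 0 with library size alone, and 1, 0 and 2 with all 14 libraries as 6 groups. RLE normalization gave 2 pyruvate and cycle genes higher, at least 10 counts in every library gave 2 glycolytic genes lower, and omitting the 4 genes of shared sequence gave 1 glycolytic gene higher. With set as a covariate, library size alone gave 7 glycolytic genes higher and 2 lower and 1 pyruvate and cycle gene lower, at least 10 counts in every library gave 1 pyruvate and cycle gene lower, and DESeq2 and every gene of at least 1 count gave 2 glycolytic genes lower. In KO vs. Ctrl these last 2 settings gave 1 glycolytic gene lower, and in KO vs. WT all 14 libraries as 6 groups gave 0, so that Eno2 was lost. The KO effect differed between the WT and CreCtrl sets for 12 enzymes with DESeq2, 12 with every gene of at least 1 count and 7 with at least 10 counts in every library. Over all genes, calls higher and lower in KO vs. CreCtrl went from 575 and 1954 to 1655 and 2441 with DESeq2, 1862 and 2931 with every gene of at least 1 count and 219 and 2757 with library size alone, in KO vs. Ctrl from 0 and 0 to 17 and 1094 and 26 and 1632 with the first pair of settings, and with the covariate from 3252 and 3003 to 1531 and 4598 with library size alone, which gave 1716 and 3942 in KO vs. WT in place of 2490 and 2929. Medians over genes turned the glycolytic minus cycle difference to -0.41 in the WT set and 0.31 in the CreCtrl set, and omitting the 4 genes turned it to -0.14 in the WT set. In the 7 controls Aldoa was 96.3% of Aldoa and Aldoc together, or 93.5% with counts not divided by length and 94.1% with the length of all exons, which gave 70.4% for Eno1 (of Eno1 and Eno2) and 82.3% for Hk1 (of Hk1 and Hk2) against 78.7% and 89.3%. The replicate block was a further alternative, although same-numbered libraries did not deviate together (correlations of -0.0156, 0.0445 and 0.13 for WT and KO, 0.000687 for Ctrl and KO and 0.13 for CreCtrl and KO). With this block, KO vs. CreCtrl had 4 glycolytic genes higher, 2 lower and 5 pyruvate and cycle genes higher, 1 enzyme differed between the WT and CreCtrl sets, 1108 of all genes were called higher in KO vs. CreCtrl and 113 lower in KO vs. Ctrl, and Pgk1 in KO vs. Ctrl was -0.070. Of the counts, shares and scores under all alternatives, 58 moved by more than 1.5 times or 1 SD between libraries, 3 turned sign and 249 did neither, and of single genes 1966 kept direction and side of the threshold, 86 gained a call, 50 turned sign and the rest lost a call. The cause of these shifts was not tested. Groups held 2 or 3 libraries, and the enzymes had 48 or more counts in every library.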
